A study of Rattus norvegicus with 30 samples.

Results

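Metallothionein and zinc transporter transcripts were followed in the lungs of rats with severe acute pancreatitis (SAP), by RNA-seq of 30 libraries in 10 groups of 3 rats. The genes were the metallothioneins Mt1 and Mt2A, the zinc exporter gene Slc30a1, the zinc importer gene Slc39a14 and Mtf1, which encodes the metal-responsive transcription factor MTF-1. These 5 symbols matched 6 of the 22914 rows with counts, because Mt1 names 2 rows (ENSRNOG00000038047 on chromosome 17 and ENSRNOG00000025764 on chromosome 19). The other rows were ENSRNOG00000043098 (Mt2A, chromosome 19), ENSRNOG00000004749 (Slc30a1, chromosome 13), ENSRNOG00000009832 (Slc39a14, chromosome 15) and ENSRNOG00000050240 (Mtf1, chromosome 5). The genes were chosen by symbol, but with measured values of these same libraries already known, and which comparison weighed in that choice is not recorded. Their levels and fold changes are therefore given as a description. No p is printed for them, and whether they passed the threshold used for all genes is stated beside the share of all genes that did, without support being drawn from it.

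All rats were male Sprague Dawley rats, 8 weeks old, fasted and operated on under pentobarbital, and lung tissue was taken at 6 or 24 hours after the operation. In the Sham groups the pancreas was only turned slightly, and in the Con groups the biliopancreatic duct was infused with saline. Rats of the SAP, DEX and Emo groups instead had 5.0% sodium taurocholate infused into the duct, which is a bile salt used to provoke pancreatitis. The DEX groups then received dexamethasone, a synthetic glucocorticoid, into a vein at 10 mg/kg, and the Emo groups received emodin, a plant anthraquinone, into the stomach. Each drug was scheduled at 2 and 12 hours, so rats of DEX-6h and Emo-6h had 1 dose. The emodin dose is 40 mg/kg in the treatment protocol and 10 mg/kg in the sample descriptions. All groups other than DEX received intravenous saline, and all groups other than Emo received intragastric carboxymethylcellulose, so each drug group also had the vehicle of the other drug. Injury was induced through the pancreas alone, and each library holds RNA of every cell type in the piece of lung.

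Metallothioneins are small cysteine-rich proteins that bind zinc and copper and buffer free zinc in the cell. When cytosolic zinc rises, MTF-1 binds metal response elements in the promoters of metallothionein genes and of Slc30a1, whose product ZnT1 carries zinc out across the plasma membrane. Slc39a14 encodes ZIP14, which carries zinc, iron and manganese into the cell and is known as an interleukin-6-responsive, acute-phase gene of the liver. Metallothionein genes are also known targets of glucocorticoids and of acute-phase cytokines.

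The RefSeq promoters of the members show how densely such elements are placed. Of the 5 symbols, 4 had a promoter entry, and Slc39a14 had none. The core of the metal response element was searched as TGCGCNC or TGCACNC on both strands in the 250 bases before the start site, in the GRCr8 build. The 3 promoters below are shown because they belong to the genes that MTF-1 is known to act on. Capitals mark each match, read from 5′ to 3′ along the gene's strand, so a match on the other strand stands in its reverse complement.

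The Mt1 promoter lies at chr19:10832976-10833225 on the minus strand.

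Mt1: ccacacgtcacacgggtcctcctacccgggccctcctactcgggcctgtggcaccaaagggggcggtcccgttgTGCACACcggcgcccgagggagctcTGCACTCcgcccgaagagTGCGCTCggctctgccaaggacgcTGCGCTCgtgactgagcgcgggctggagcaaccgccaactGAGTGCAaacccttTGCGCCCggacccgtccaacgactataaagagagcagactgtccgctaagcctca

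The Mt2A promoter lies at chr19:10838709-10838958 on the minus strand.

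Mt2A: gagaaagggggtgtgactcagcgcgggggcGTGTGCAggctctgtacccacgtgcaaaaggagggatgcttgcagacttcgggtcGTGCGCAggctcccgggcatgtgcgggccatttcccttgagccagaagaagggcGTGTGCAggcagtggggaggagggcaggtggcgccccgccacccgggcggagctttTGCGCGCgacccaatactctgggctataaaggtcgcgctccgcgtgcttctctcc

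The Slc30a1 promoter lies at chr13:106021769-106022018 on the plus strand.

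Slc30a1: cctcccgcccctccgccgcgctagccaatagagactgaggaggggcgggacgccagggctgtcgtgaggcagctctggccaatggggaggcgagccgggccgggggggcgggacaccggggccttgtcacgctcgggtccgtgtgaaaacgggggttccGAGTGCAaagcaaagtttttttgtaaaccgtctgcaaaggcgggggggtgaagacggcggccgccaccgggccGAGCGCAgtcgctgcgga

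The Mt1 promoter held 6 matches, 5 on the gene's own strand and 1 on the other. Of all 33469 rat promoters of this length, 0.0269% held 6 or more. The Mt2A promoter held 4 matches, 1 on the gene's strand and 3 on the other, and 0.266% of all promoters held 4 or more. In both genes 1 match lay at the same distance, 55 to 49 bases before the start site. The Slc30a1 and Mtf1 promoters each held 2 matches, a number reached or passed by 4.90% of all promoters, and 20.6% of all promoters held at least 1. The promoter of Mt3, the metallothionein known mainly from the brain, held 3 matches. The GC content of these 5 promoters was 62.8% to 69.2%, and the motif itself is rich in G and C. A glucocorticoid response element, searched on both strands as AGAACA and TGTTCT with 3 bases between them, was in none of the 4 member promoters and in 0.0120% of all promoters, and its part AGAACA alone was in the Mtf1 promoter but not the other member promoters and in 17.5% of all. A match is not a shown binding site, and these windows leave out everything farther away. RefSeq places a single Mt1 gene, on chromosome 19. Whether the chromosome 17 row, which comes from another build, has this promoter was not tested.

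**Figure D1:**
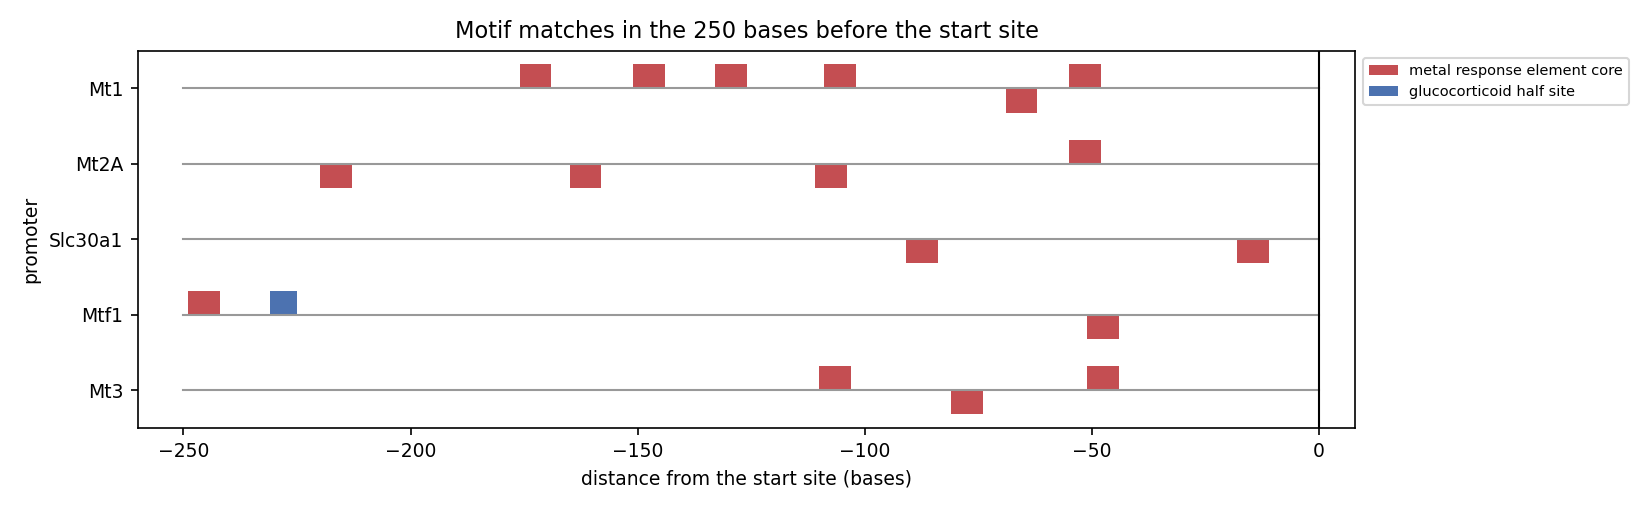
Motif matches in the 250 bases before the start site of Mt1, Mt2A, Slc30a1, Mtf1 and Mt3 (horizontal axis, distance in bases), with boxes above the line on the gene's strand and below it on the other strand. Mt1 has 6 and Mt2A 4 matches of the metal response element core, Mt3 has 3, and Slc30a1 and Mtf1 have 2 each.

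Each library held 16813949 to 34692306 reads on genes. Of the 6 rows, 5 passed the filter on low counts with 15934 rows in all, and only Mtf1 did not. Mtf1 had 10 reads in all 30 libraries together, 0 reads in 23 of them, and at most 4 in 1 library. The highest Mtf1 value was 0.02 FPKM (fragments counted relative to gene length and to the mapped reads of the library), in replicate 2 of SAP-6h. Of these reads 6 lay in SAP-6h (1, 4 and 1), and the Con and Emo groups and DEX-6h had 0 in every library. Mtf1 was not tested, as it did not pass the filter. Whether the gene model counted covers the whole Mtf1 transcript was not tested, so the reads may not give the level of Mtf1. Lung markers were present throughout: the summed level of 6 alveolar type 2 cell markers was 24516 to 46984 FPKM in every library, while the sum of 8 heart muscle markers ran from 7.12 to 274 FPKM. The sequencing statistics given with the study list a larger share of unique tags in every Sham and Con library than in any library of a rat given taurocholate. In comparisons between those sides, what taurocholate did and how the libraries differ cannot be told apart, and SAP, DEX and Emo all lie on 1 side. At 24 hours, however, the listed share also differed without overlap among SAP-24h, DEX-24h and Emo-24h, lowest in SAP-24h and highest in Emo-24h, and at 6 hours it was lower in DEX-6h than in SAP-6h without overlap, so there too library differences and drug effects cannot be told apart. The listed share was also higher at 24 than at 6 hours without overlap in DEX and in Emo. In whole lung, fewer cells of a type and less RNA per cell cannot be told apart.

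The chromosome 17 row carried nearly all Mt1 signal, with 591 to 29969 reads per library against 11 to 689 for the chromosome 19 row, which held 2.32% of all Mt1 reads. Reads that mapped to more than 1 place were discarded by the authors, so how reads divided between these rows, and how many were lost, cannot be read from the counts. The ratio of reads between the rows was 30.2 in replicate 1 of DEX-24h and 97.8 in replicate 2 of Con-6h, with a median of 42.9. It was 67.5 to 97.8 in the Con libraries and 30.2 to 41.7 in the DEX libraries. Both rows ordered the libraries alike, with a Pearson r of 0.953 on log2(FPKM + 1) over the 30 libraries, and 0.923 after each group's mean was removed. Both rows were measured in the same libraries, so their values are not independent of each other. The Mt1 and Mt2A rows and Mt1m, a pseudogene with few reads, together took 0.00397% of reads in the lowest library of Sham-24h and 0.326% in the highest library of SAP-24h.

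Mt2A, the most variable member, spanned 23.0 to 4646 FPKM over the 30 libraries with a median of 262. In Sham-6h it was 153, 352 and 51.2 FPKM in replicates 1, 2 and 3, and in Con-6h 87.3, 418 and 60. In SAP-6h it was 1103, 910 and 724 FPKM, all above every Sham-6h and Con-6h library. In DEX-6h it was 2452, 1880 and 738 FPKM, with replicate 3 inside the SAP-6h range and the others above it. Emo-6h held 691, 252 and 1502 FPKM, from below the highest Sham-6h library to above every SAP-6h library.
At 24 hours the Sham lungs had little Mt2A, at 28.9, 56.4 and 53.3 FPKM. Con-24h held 271 FPKM in replicate 1 and 23.0 and 28.2 in the others. SAP-24h held 4646 FPKM in replicate 1 and 514 and 532 in the others, all above every other 24 hour library. In DEX-24h Mt2A was 222, 149 and 344 FPKM, below every SAP-24h and above every Sham-24h library. In Emo-24h it was 85.3, 47.9 and 210 FPKM, which overlapped both Sham-24h and DEX-24h.

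The order of the Mt2A group means, from low to high, was Sham-24h, Con-24h, Emo-24h, Sham-6h, Con-6h, DEX-24h, Emo-6h, SAP-6h, DEX-6h and SAP-24h. The means ran from 46.2 ± 15 (SD, n = 3) in Sham-24h to 1897 ± 2380 FPKM (SD, n = 3) in SAP-24h, a 41.1-fold range. The place of SAP-24h at the top rested on replicate 1: without it the mean was 523 FPKM (n = 2), 11.3-fold above Sham-24h and below DEX-6h, SAP-6h and Emo-6h, and the range from Sham-24h to DEX-6h was 36.6-fold. With replicate 1 of Con-24h left out that group was lowest instead, at 25.6 FPKM, and the range was 74.1-fold. All 9 pairs of neighbours in that order overlapped, so no step between adjacent groups exceeded the spread between rats. Group means at 6 hours were 185 ± 153 (Sham-6h), 912 ± 190 (SAP-6h), 1690 ± 873 (DEX-6h) and 815 ± 634 FPKM (Emo-6h) (SD, n = 3). Without replicate 2 the Sham-6h mean was 102 FPKM, and without replicate 3 the Emo-6h mean was 471 FPKM (n = 2 in each).

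Mt1 on chromosome 17 was measured in the same libraries. Its levels were 86.0, 130 and 133 FPKM in Sham-6h and 152, 273 and 93.2 in Con-6h. In SAP-6h they were 472, 412 and 371 FPKM, with no overlap with Sham-6h or Con-6h. In DEX-6h they were 886, 695 and 349 FPKM, and in Emo-6h 361, 170 and 577. Both drug groups had libraries below and above the whole SAP-6h range.
At 24 hours Mt1 on chromosome 17 was 55.8, 86.9 and 76.4 FPKM in Sham-24h and 146, 69.4 and 81.9 in Con-24h. SAP-24h held 2190, 342 and 302 FPKM, again with replicate 1 far above the others. DEX-24h was the tightest group, at 147, 148 and 173 FPKM. Emo-24h lay at 49.7, 62.8 and 132 FPKM, overlapping Sham-24h and below every DEX-24h library. The group means of this row ran from 73.0 ± 15.8 in Sham-24h to 945 ± 1079 FPKM in SAP-24h (SD, n = 3), a 12.9-fold range. Without replicate 1 of SAP-24h that group's mean was 322 FPKM (n = 2), 4.41-fold above Sham-24h and below DEX-6h, SAP-6h and Emo-6h, and the range up to DEX-6h was 8.81-fold. Of the 9 neighbours in its order of means, 8 overlapped, and only Sham-6h and DEX-24h, neighbours in that order, did not.

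Mt1 on chromosome 19 was far lower, from 0.97 to 56.3 FPKM, with a 16.9-fold range of group means from 1.51 in Con-24h to 25.5 in SAP-24h. That mean was 10.1 (n = 2) without replicate 1, 6.71-fold above Con-24h, and DEX-6h was highest with a 13.5-fold range. Without replicate 2 of Sham-24h the range was 26.0-fold, from 0.98 in Sham-24h. It was 1.92, 4.15 and 1.74 FPKM in Sham-6h against 13.5, 8.19 and 6.69 in SAP-6h. At 24 hours it was 0.97, 2.66 and 0.99 FPKM in Sham-24h, 56.3, 12.1 and 8.16 in SAP-24h, 5.43, 5.35 and 5.12 in DEX-24h and 1.32, 1.88 and 4.43 in Emo-24h. The SAP libraries lay above all Sham libraries at both times, and DEX-24h lay between SAP-24h and Sham-24h without touching either.

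**Figure D2:**
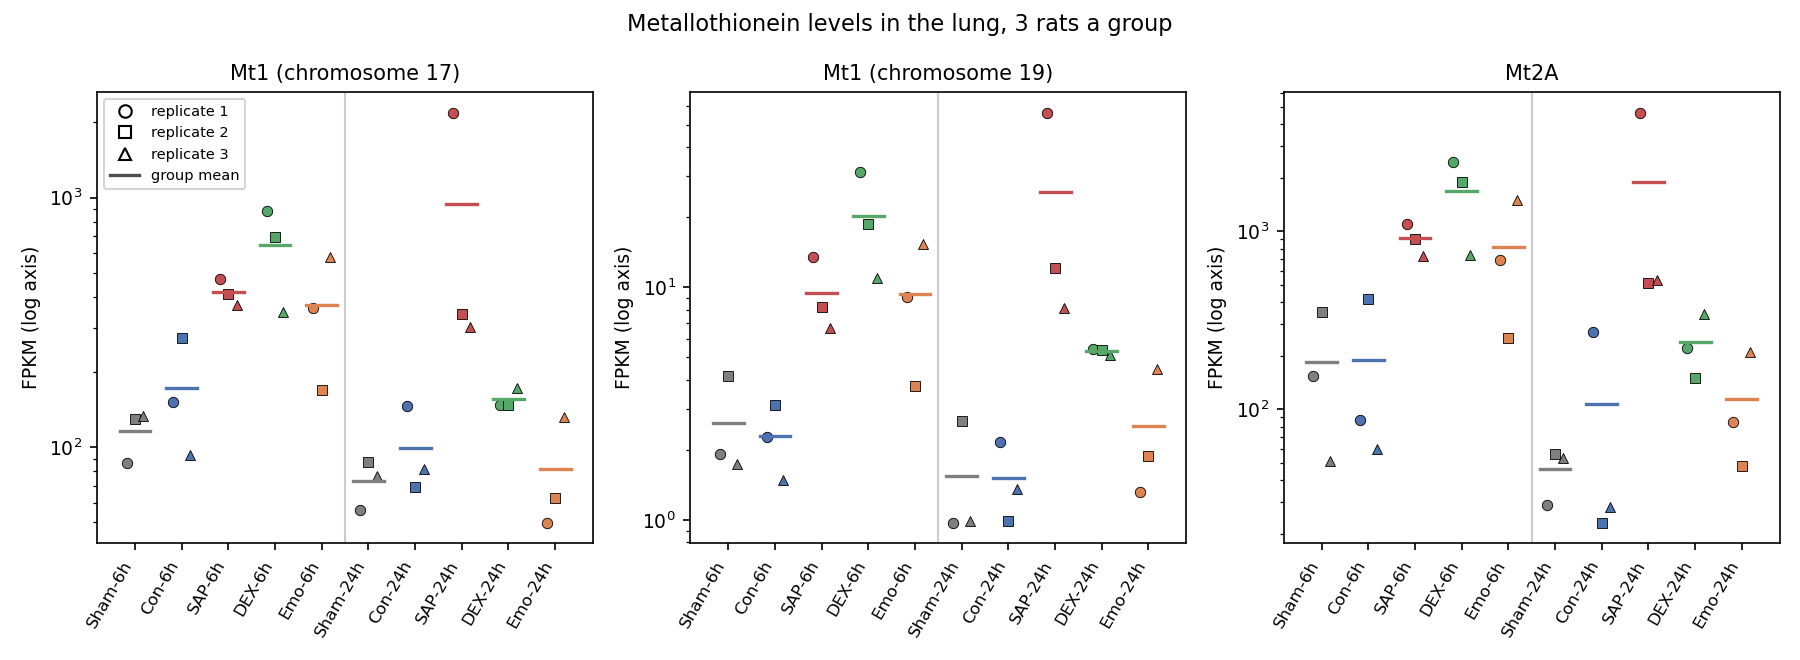
FPKM on a log axis for Mt1 on chromosome 17, Mt1 on chromosome 19 and Mt2A in every library, by group, with 1 symbol for each replicate and a line at the group mean (3 rats a group). Replicate 1 of SAP-24h is the highest library in all panels (2190, 56.3 and 4646 FPKM), and the Emo-24h range overlaps that of Sham-24h in each panel.

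The balance between Mt2A and Mt1 was compared between libraries. How many reads of either gene were lost by mapping to more than 1 place cannot be read from the counts. The balance is therefore that of the reads counted. On the FPKM scale, which corrects for gene length, Mt2A was above the chromosome 17 Mt1 row in 21 of 30 libraries. It was above it in all 3 libraries of SAP-6h, DEX-6h, Emo-6h, SAP-24h and DEX-24h, in 2 of 3 in Emo-24h and Sham-6h, in 1 of 3 in Con-6h and Con-24h, and in 0 of 3 in Sham-24h. The ratio was lowest in replicate 2 of Con-24h, at 0.332, and highest in replicate 1 of DEX-6h, at 2.77. In SAP-24h it was 1.50 to 2.12, and in Sham-24h 0.518 to 0.697, with no overlap, but it overlapped Con-24h, at 0.332 to 1.86. At 6 hours the SAP-6h ratios, 1.95 to 2.34, lay inside the range of Sham-6h, 0.385 to 2.71. They lay above those of Con-6h, 0.575 to 1.53, without overlap.

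Slc30a1 had the narrowest range of the 5 rows compared. It spanned 3.04 to 7.16 FPKM over the libraries, and its group means ran from 3.77 ± 0.651 in DEX-6h to 5.48 ± 0.698 FPKM in Sham-24h (SD, n = 3), a 1.45-fold range. SAP-24h was highest instead without its replicate 1, at 6.33 FPKM (n = 2), a 1.68-fold range, and leaving out replicate 3 of Emo-24h or replicate 1 or 3 of Sham-24h put Emo-24h highest. All 9 neighbours in the order of means overlapped. At 6 hours it was 4.69, 4.89 and 4.60 FPKM in Sham-6h, and 3.79, 4.32 and 3.69 in SAP-6h, which lay below all of them. It was 3.18, 3.67 and 4.47 FPKM in DEX-6h and 4.5, 4.04 and 4.22 in Emo-6h, also below all Sham-6h libraries. At 24 hours SAP-24h held both the lowest and the highest value of all libraries, 3.04 in replicate 1 and 7.16 in replicate 3, with 5.50 in replicate 2. Sham-24h (6.09, 4.72 and 5.64 FPKM), DEX-24h (4.92, 5.02 and 5.51) and Emo-24h (5.73, 6.15 and 4.38) all lay inside that range.

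The 3 libraries with the lowest Slc30a1 each had the highest metallothionein levels of their group. Replicate 1 of SAP-24h had the lowest Slc30a1 (3.04 FPKM) and the highest Mt2A (4646 FPKM) of all libraries. Replicate 1 of Con-24h had 3.13 FPKM of Slc30a1, lowest of its group, with 271 FPKM of Mt2A, highest of its group. Replicate 1 of DEX-6h had 3.18 FPKM of Slc30a1 and 2452 FPKM of Mt2A, again the lowest and highest of the group. Over the 30 libraries, Pearson r on log2(FPKM + 1) between Slc30a1 and the chromosome 17 Mt1 row was -0.615 (Spearman rho -0.619), -0.450 without the 2 libraries farthest from the median of Mt1, and -0.701 (rho -0.545) on deviations from the group means. Between Slc30a1 and Mt2A r was -0.590 over all libraries and -0.618 (rho -0.389) on deviations. The values on deviations without replicate 1 of SAP-24h were -0.455 for Mt1 and -0.470 for Mt2A. These are descriptions over libraries that share groups, with both genes measured in the same library, and their cause was not tested.

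Slc39a14 was low throughout, from 1.17 to 4.66 FPKM, and highest in DEX-6h. It was 1.39, 2.22 and 1.21 FPKM in Sham-6h and 1.17, 2.15 and 1.36 in Con-6h. In SAP-6h it was 1.83, 2.52 and 2.72 FPKM, which overlapped Sham-6h, and in DEX-6h 4.66, 2.46 and 3.05, above every Sham-6h and Con-6h library. Emo-6h lay lower, at 2.10, 1.69 and 2.07 FPKM, below every DEX-6h library.
At 24 hours Slc39a14 was 1.38, 1.20 and 1.57 FPKM in Sham-24h and 2.61, 1.43 and 2.60 in SAP-24h, where only replicate 2 fell inside the Sham-24h range. It was 1.25, 1.30 and 1.66 FPKM in DEX-24h and 1.73, 1.44 and 1.67 in Emo-24h, and each of these groups overlapped SAP-24h through that replicate. The group means ran from 1.33 ± 0.107 in Con-24h to 3.39 ± 1.14 FPKM in DEX-6h (SD, n = 3), a 2.54-fold range, and all 9 neighbours in the order of means overlapped. Slc39a14 followed Mt2A with an r of 0.782 (rho 0.812) over the 30 libraries and 0.538 (rho 0.498) on deviations from the group means. With the Mt1 rows on chromosomes 17 and 19 r was 0.727 and 0.721 over the libraries. On deviations these were 0.390 (rho 0.311) and 0.332 (rho 0.261). Between Slc39a14 and Slc30a1 on deviations r was -0.111 and rho 0.0558.

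**Figure D3:**
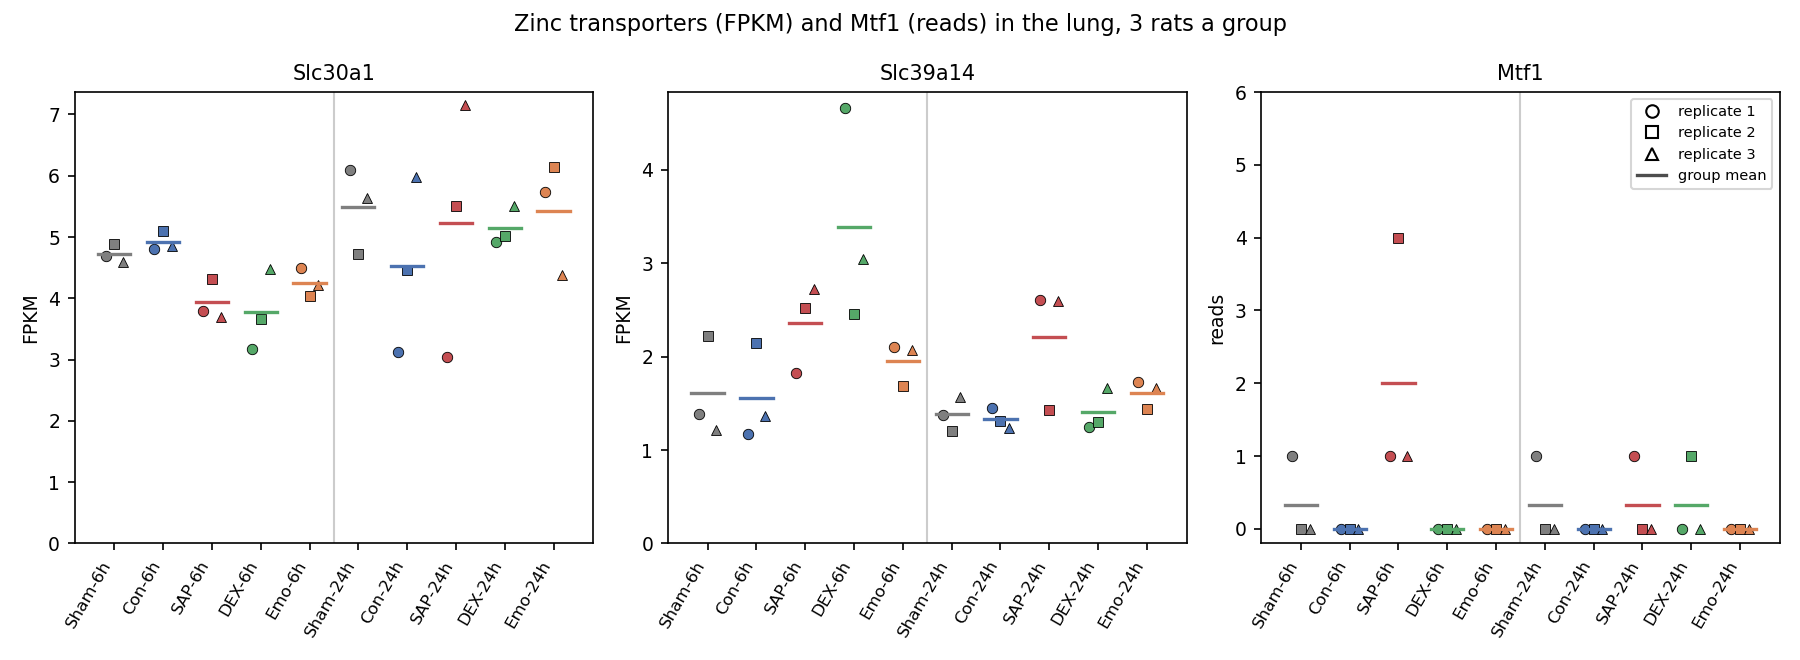
Slc30a1 and Slc39a14 in FPKM and Mtf1 in reads, for every library by group, with 1 symbol for each replicate and a line at the group mean (3 rats a group). Slc30a1 stays between 3.04 and 7.16 FPKM, Slc39a14 is highest in DEX-6h at 4.66, 2.46 and 3.05 FPKM, and Mtf1 never exceeds 4 reads.

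To compare groups, log2 fold changes were taken from a quasi-likelihood model of all 15934 rows over the 30 libraries, in which a gene is called a DEG at an adjusted p under 0.05 and at least a 2-fold change. The number of member rows that met this threshold is given beside the share of all tested rows that did, and since the members were chosen with such results known, nothing is read from that share. The number of member rows whose groups did not overlap in FPKM is likewise given beside the share of all tested rows that did not overlap, in either direction. Comparisons that share a group are not independent of each other.

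In SAP-6h versus Sham-6h, 0 of 5 member rows met the threshold, beside 0.220% of all rows. The log2 fold change was 2.37 ± 1.00 (SE) for Mt2A, 1.90 ± 0.61 for Mt1 on chromosome 17 and 1.93 ± 0.68 on chromosome 19. It was 0.60 ± 0.26 for Slc39a14 and -0.22 ± 0.20 for Slc30a1. The value of Mt2A became 3.21 without replicate 2 of Sham-6h. Of the 5 rows 4, all but Slc39a14, did not overlap between the groups, beside 15.3% of all rows. In SAP-6h versus Con-6h, 0 of 5 rows met the threshold, beside 0.163% of all rows, and 4 of 5 did not overlap, beside 18.7% of all rows. Mt2A stood at 2.40 ± 1.00, and at 3.67 without replicate 2 of Con-6h. The summed red blood cell markers (5 matched genes) were 6260 to 9503 FPKM in SAP-6h, 771 to 3635 in Sham-6h and 2251 to 6560 in Con-6h, so they were apart from Sham-6h and overlapped Con-6h. By edgeR 0 of 5 were called in either comparison (5 and 1 at an unadjusted p under 0.05). The endothelial markers (4 of 5 genes matched) summed to 1057 to 1466 in SAP-6h, above the 984 to 1037 of Sham-6h, though Kdr, the gene of a receptor for vascular endothelial growth factor, was called down in both comparisons. Their median log2 fold change against Sham-6h was -0.00. Against Con-6h the sums of glucocorticoid targets (764 to 1178 against 518 to 664), of interleukin-6 and STAT3-related genes (954 to 1305 against 667 to 727) and of macrophage markers (14517 to 22850 against 12778 to 13947) were also higher without overlap, with 0 called by edgeR in each (5 of 8, 4 of 9 and 1 of 6 at an unadjusted p under 0.05). The part of these lists in the metallothionein values was not tested.

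In SAP-24h versus Sham-24h, 3 of 5 member rows met the threshold upwards, beside 5.00% of all rows in either direction, and 3 of 5 did not overlap, beside 29.4% of all rows. These were the metallothionein rows, at 5.55 ± 1.16 (46.7-fold) for Mt2A, 3.88 ± 0.67 (14.7-fold) for Mt1 on chromosome 17 and 4.22 ± 0.73 (18.6-fold) on chromosome 19. Mt2A had the 6th highest fold change of the 15934 rows, and the Mt1 rows on chromosomes 19 and 17 the 24th and 28th. Much of this size came from 1 library. Without replicate 1 of SAP-24h the log2 fold changes were 3.58, 2.23 and 2.80 in the same order, without replicate 2 of Sham-24h that of Mt1 on chromosome 19 was 4.88, and all 3 rows still met the threshold, as they did with any other library of this comparison left out. Slc39a14 stood at 0.81 ± 0.26 and Slc30a1 at 0.04 ± 0.20. In SAP-24h versus Con-24h the same 3 rows met it, beside 6.91% of all rows, and did not overlap, beside 32.1% of all rows, with 4.33 ± 1.09 for Mt2A, which became 2.35 and missed the threshold without replicate 1 of SAP-24h and 6.41 without replicate 1 of Con-24h. The Mt1 rows stood at 3.44 and 4.26, and at 1.78 and 2.83 without replicate 1 of SAP-24h.

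Marker lists were read in the same libraries. The summed FPKM of interleukin-6 and 8 further STAT3-related genes was 2758 in replicate 1 of SAP-24h, 1094 and 1338 in the others, and 367 to 492 in Sham-24h, and all 9 of these genes were called up in SAP-24h versus Sham-24h. The summed neutrophil markers (8 genes) were 12551 there, 4441 in replicate 2 and 16316 in replicate 3, so they did not single out replicate 1, and they were 199 to 9246 in Sham-24h, with 1 of 8 called up. Against Con-24h, where they were 103 to 954, all 8 neutrophil markers were called up in SAP-24h (median log2 fold change 4.48), along with 7 of the 9 STAT3-related genes. The summed macrophage markers (6 of 7 genes matched) were 24169 to 31498 in the SAP libraries of that time and 17798 to 25730 in the Sham libraries, with 1 of 6 called up. The club cell markers (3 genes) summed to 37349 to 47239 in SAP-24h, above the 19952 to 35964 of the Sham libraries without overlap, with 0 of 3 called by edgeR (1 at an unadjusted p under 0.05). The alveolar type 1 sum was lowest of all libraries in replicate 1 of SAP-24h, at 1224 against 2444 and 2310 in the others, and 1 of its 5 genes, the water channel gene Aqp5, was called down against both Sham-24h and Con-24h. Against Con-24h the macrophage sum was higher (18126 to 20112 in Con-24h, Marco called up), and the alveolar type 1 sum (2552 to 3426) and the endothelial sum (801 to 851 in SAP-24h, 986 to 1179 in Con-24h, Kdr called down) were lower, each without overlap. Of 6 antioxidant targets of NRF2, 1, Slc7a11, was called up against Con-24h (3 at an unadjusted p under 0.05). Their sums overlapped, at 84.6 to 98.5 in SAP-24h and 91.6 to 103 in Con-24h. The part of any of these in the metallothionein values was not tested.

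Against SAP, the metallothionein rows stood higher in DEX at 6 hours, with overlap, and lower in DEX and emodin at 24 hours, without overlap. Whether the effects differ between times was not tested for the members. In DEX-6h versus SAP-6h, 0 of 5 rows met the threshold, beside 0.515% of all rows. Of the 5, 0 were without overlap, beside 17.5% of all rows. The log2 fold change was 0.90 ± 0.96 for Mt2A, and 0.63 ± 0.59 and 1.10 ± 0.63 for the Mt1 rows on chromosomes 17 and 19. It was 0.53 ± 0.26 for Slc39a14 and -0.07 ± 0.20 for Slc30a1. The red blood cell sum was lower in DEX-6h without overlap, at 769 to 6181 against 6260 to 9503, with 0 of 5 called by edgeR (0 at an unadjusted p under 0.05), and 1 of 8 glucocorticoid target rows, Sgk1, was called up. The part of these lists was not tested. In DEX-24h versus SAP-24h, 2 of 5 rows met it downwards, beside 3.73% of all rows, and 3 of 5 did not overlap, beside 25.0% of all rows. The rows that met it were those of Mt1, at -2.75 ± 0.63 and -2.41 ± 0.66, and Mt2A at -3.15 ± 1.03 did not meet it. Without replicate 1 of SAP-24h the values were -1.08, -0.97 and -1.18, and neither Mt1 row met it, and the chromosome 19 row also missed it without any one of the DEX-24h libraries. DEX-24h libraries stayed below the other SAP-24h libraries in all 3 rows. The neutrophil markers were lower in the same comparison, at a summed 1013 to 2970 FPKM in DEX-24h without overlap with SAP-24h, a median log2 fold change of -1.99 and 2 of 8 called down. The summed macrophage markers were 17746 to 21427 in DEX-24h and the club cell markers (3 genes) 25254 to 36120, below the 24169 to 31498 and 37349 to 47239 of SAP-24h without overlap. By edgeR 0 of 6 macrophage and 0 of 3 club cell markers were called (3 and 0 at an unadjusted p under 0.05), and the median log2 fold changes were -0.47 and 0.24, the latter of the opposite sign to its sum. The endothelial sum was higher in DEX-24h, at 890 to 1031, with 0 of 4 called (1 at an unadjusted p under 0.05). The part of these lists in the Mt1 difference was not tested.

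Emo-6h versus SAP-6h showed 0 of 5 rows past the threshold, beside 0.0251% of all rows, and 0 of 5 without overlap, beside 17.9% of all rows. Mt2A stood at -0.17 ± 0.95 and Mt1 on chromosome 17 at -0.18 ± 0.59, and with 1 library left out these ran from -0.96 without replicate 3 of Emo-6h to 0.27 without replicate 2, and from -0.66 to 0.18 likewise, so neither kept its direction. In Emo-24h versus SAP-24h, 3 of 5 rows met it downwards, beside 3.19% of all rows, and the same 3 did not overlap, beside 29.3% of all rows. The log2 fold change was -4.25 ± 1.09 for Mt2A, -3.73 ± 0.66 for Mt1 on chromosome 17 and -3.51 ± 0.70 on chromosome 19, the 13th, 25th and 27th lowest of the 15934 rows. Without replicate 1 of SAP-24h these were -2.29, -2.09 and -2.09, and both Mt1 rows still met the threshold while Mt2A did not, and Mt2A also missed it without replicate 1 or replicate 2 of Emo-24h. Without replicate 3 of Emo-24h they were -5.13, -4.35 and -4.25. Slc39a14 was at -0.62 ± 0.26 and Slc30a1 at -0.09 ± 0.20. The summed neutrophil markers were 4262 to 6594 FPKM in Emo-24h, which overlapped SAP-24h, with a median of -1.04 and 0 of 8 called by edgeR (1 at an unadjusted p under 0.05). The summed macrophage markers, 17227 to 20536, and club cell markers, 25635 to 37156, lay below SAP-24h without overlap, with 0 called by edgeR (3 of 6 and 1 of 3 at an unadjusted p under 0.05) and median log2 fold changes of -0.43 and 0.20, the latter again of the opposite sign to its sum. The heart muscle sum was 127 to 252 in Emo-24h and 7.12 to 125 in SAP-24h, with 0 of 8 called by edgeR (1 at an unadjusted p under 0.05). The part of these lists was not tested.

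The drug groups were also set against each other and against Sham. In Emo-6h versus DEX-6h, 0 of 5 rows met the threshold (1.41% of all rows), with Slc39a14 at -0.80 ± 0.26 as the 1 row of 5 without overlap, beside 21.0% of all rows. The glucocorticoid target sum was lower in Emo-6h (844 to 967 against 1265 to 1517, with Fkbp5 called down of 8 rows) and the NRF2 target sum higher (112 to 128 against 91.4 to 105, with 0 of 6 called by edgeR and 2 at an unadjusted p under 0.05), both without overlap. In Emo-24h versus DEX-24h, 0 of 5 met it (5.06% of all rows), and 2 of 5 did not overlap, beside 29.4% of all rows. These were the Mt1 rows, at -0.98 ± 0.60 and -1.10 ± 0.67, which became -1.62 and -1.86 without replicate 3 of Emo-24h. In that comparison 6 of 8 glucocorticoid target rows were called down (median -1.30), and the sums of STAT3-related genes (491 to 717 in Emo-24h, 763 to 848 in DEX-24h), red blood cell markers (293 to 1346 against 1364 to 1670) and endothelial markers (685 to 865 against 890 to 1031) were lower and that of neutrophil markers (4262 to 6594 against 1013 to 2970) higher, without overlap and with 0 called by edgeR in each of these lists (4 of 9, 0 of 5, 1 of 4 and 1 of 8 at an unadjusted p under 0.05). The endothelial median log2 fold change was 0.04, of the opposite sign to its sum. The alveolar type 2 marker Sftpb was called down. In DEX-6h versus Sham-6h, 4 of 5 met it upwards (3.97% of all rows in either direction), namely Mt2A at 3.27 ± 1.04, the Mt1 rows at 2.53 ± 0.63 and 3.02 ± 0.69, and Slc39a14 at 1.13 ± 0.26. All 5 rows were without overlap, beside 26.7% of all rows. Only Mt1 on chromosome 19 kept the threshold with each library of that pair left out in turn, and Mt2A missed it in 5 of the 6 cases and became 4.12 without replicate 2 of Sham-6h. Without overlap, the DEX-6h sums were also higher for glucocorticoid targets (1265 to 1517 against 571 to 863, with Per1 and Fkbp5 called up of 8 rows), STAT3-related genes (1184 to 1740 against 522 to 1009, with Cebpb and Il4r called up of 9) and endothelial markers (1237 to 1411 against 984 to 1037, though Kdr was called down). The macrophage marker Adgre1 and Aqp5 were called down as well, with overlapping sums. The endothelial median log2 fold change was -0.14, of the opposite sign to its sum. In DEX-24h versus Sham-24h, 0 of 5 met it (4.15% of all rows), and 3 of 5 did not overlap, beside 26.1% of all rows. These were Mt2A at 2.39 ± 1.01, Mt1 on chromosome 17 at 1.13 ± 0.60 and on chromosome 19 at 1.81 ± 0.70, which became 2.48 without replicate 2 of Sham-24h. Glucocorticoid targets (1093 to 1238 against 415 to 904, with 3 of 8 rows called up) and STAT3-related genes (763 to 848 against 367 to 492, with 0 of 9 called by edgeR and 4 at an unadjusted p under 0.05) were also apart. With overlapping sums, the macrophage marker Marco and Sftpb were called up and Ngp down.
In Emo-6h versus Sham-6h, 0 of 5 met it (0.477% of all rows), and 2 of 5 did not overlap, beside 21.3% of all rows. The rows without overlap were Mt1 on chromosome 17, at 1.71 ± 0.61 (1.24 to 2.06 with 1 library left out), and Slc30a1, at -0.11 ± 0.20. Mt2A, which overlapped, stood at 2.20 ± 1.00, from 1.41 without replicate 3 of Emo-6h to 3.04 without replicate 2 of Sham-6h. The NRF2 target sum (112 to 128 against 80.4 to 109) and the endothelial sum (1054 to 1518 against 984 to 1037) were higher and the macrophage sum (13444 to 17470 against 17652 to 18023) lower there, with 0 called by edgeR (1 of 6, 1 of 4 and 0 of 6 at an unadjusted p under 0.05). The macrophage median log2 fold change was 0.03, of the opposite sign to its sum. Of the STAT3-related genes Il4r was called up, with overlapping sums. The part of the lists in the comparisons of the drug groups with each other and with Sham was not tested. In Emo-24h versus Sham-24h, 0 of 5 met it, beside 0% of all rows, and 0 of 5 were without overlap, beside 8.62% of all rows. Mt2A stood at 1.30 ± 0.98 and Mt1 on chromosome 17 at 0.15 ± 0.60, and without replicate 3 of Emo-24h these became 0.44 and -0.45. By an unadjusted p under 0.05, 478 of the 15934 rows differed there in edgeR, and DESeq2 called 0.
Sham and Con overlapped for all 5 rows at both times. In Sham-6h versus Con-6h 0 of 5 rows met the threshold, beside 0% of all rows (1372 at an unadjusted p under 0.05 and 7 called by DESeq2), and in Sham-24h versus Con-24h 0 of 5, beside 1.00% of all rows. Of all rows, 11.6% and 28.9% did not overlap in these comparisons.

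Each group was also compared between 6 and 24 hours, in different rats. In DEX and Emo the 24 hour rats also had the dose scheduled at 12 hours, which the 6 hour rats had not. For these groups time, the further dose and the shift in the listed share of unique tags cannot be told apart. In DEX-24h versus DEX-6h, 4 of 5 rows met the threshold downwards, beside 7.14% of all rows, and all 5 were without overlap, beside 42.5% of all rows. The values were -2.84 ± 1.02 for Mt2A, -2.04 ± 0.62 and -1.93 ± 0.65 for the Mt1 rows and -1.26 ± 0.26 for Slc39a14, and Slc30a1 stood at 0.47 ± 0.20. With 1 library left out in turn, Mt2A and Mt1 on chromosome 19 missed the threshold in 5 of 6 cases each, Mt1 on chromosome 17 in 3 and Slc39a14 in 1, without replicate 1 of DEX-6h, where it stood at -0.96. In Emo-24h versus Emo-6h, 3 of 5 met it downwards, beside 9.41% of all rows, and 2 of 5 did not overlap, beside 47.7% of all rows. The values were -2.86 ± 1.02 for Mt2A and -2.21 ± 0.62 and -1.91 ± 0.67 for the Mt1 rows. They became -3.72, -2.81 and -2.63 without replicate 3 of Emo-24h, and -2.08, -1.74 and -1.36 without replicate 3 of Emo-6h. Of these, Mt1 on chromosome 17 kept the threshold with any single library left out, and each of the others missed it in 4 of 6 cases. Other lists moved in the same comparison: 4 of 5 red blood cell markers were called down (median -3.39, summed 293 to 1346 FPKM in Emo-24h against 2999 to 7352 in Emo-6h), 4 of the 9 STAT3-related genes were called down, and 3 of 8 glucocorticoid target rows (Dusp1, Per1 and Tsc22d3; median -0.96) were called down, with sums of 342 to 631 against 844 to 967. The alveolar type 2 marker Lamp3 was called up. The NRF2, alveolar type 1 and endothelial sums were also lower and the neutrophil sum higher in Emo-24h without overlap, with 1 of these genes, the endothelial Cldn5, called down. In the order named, the median log2 fold changes of these lists were -0.26, -0.01, 0.10 and 0.39. The endothelial median was thus of the opposite sign to its sum. In DEX-24h versus DEX-6h 0 of 5 red blood cell markers and 3 of 9 STAT3-related genes were called down, and the glucocorticoid target sum (1093 to 1238 against 1265 to 1517, Sgk1 called up) and the endothelial sum (890 to 1031 against 1237 to 1411, Kdr called up) were lower without overlap. The endothelial median log2 fold change was 0.27, of the opposite sign to its sum. With overlapping sums, Marco and Lamp3 were called up and the neutrophil marker Ngp was called down. In SAP-24h versus SAP-6h, 0 of 5 met it, beside 2.42% of all rows, and 0 of 5 were without overlap, beside 24.0% of all rows. Mt2A stood at 1.22 ± 0.97 there and at -0.76 without replicate 1 of SAP-24h, and Mt1 on chromosome 17 turned from 1.33 to -0.33. In that comparison 4 of 5 red blood cell markers were called down (median -2.79) and 2 of 9 STAT3-related genes were called up. The neutrophil, macrophage and club cell sums were higher and the glucocorticoid, NRF2 and endothelial sums lower in SAP-24h than in SAP-6h without overlap, with 0 of their genes called by edgeR (1, 4, 1, 0, 1 and 3 at an unadjusted p under 0.05). The median log2 fold changes of the club cell (-0.32) and endothelial (0.22) lists had the opposite sign to their sums, and those of the other lists had the same sign. The part of these lists in the metallothionein differences between times was not tested. Sham-24h versus Sham-6h (0.257% of all rows) and Con-24h versus Con-6h (0.00628% of all rows) had 0 of 5 each, and 0 of 5 without overlap, beside 23.1% and 14.7% of all rows. Mt2A stood at -1.96 ± 1.00 in the former, or -1.12 without replicate 2 of Sham-6h. In the latter it stood at -0.71 ± 0.96 and turned from -2.80 without replicate 1 of Con-24h to 0.56 without replicate 2 of Con-6h. Of all 105 values of the 5 rows, 25 changed direction with some library left out, 12 of them metallothionein values, and none of the 25 had met the threshold.

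**Figure D4:**
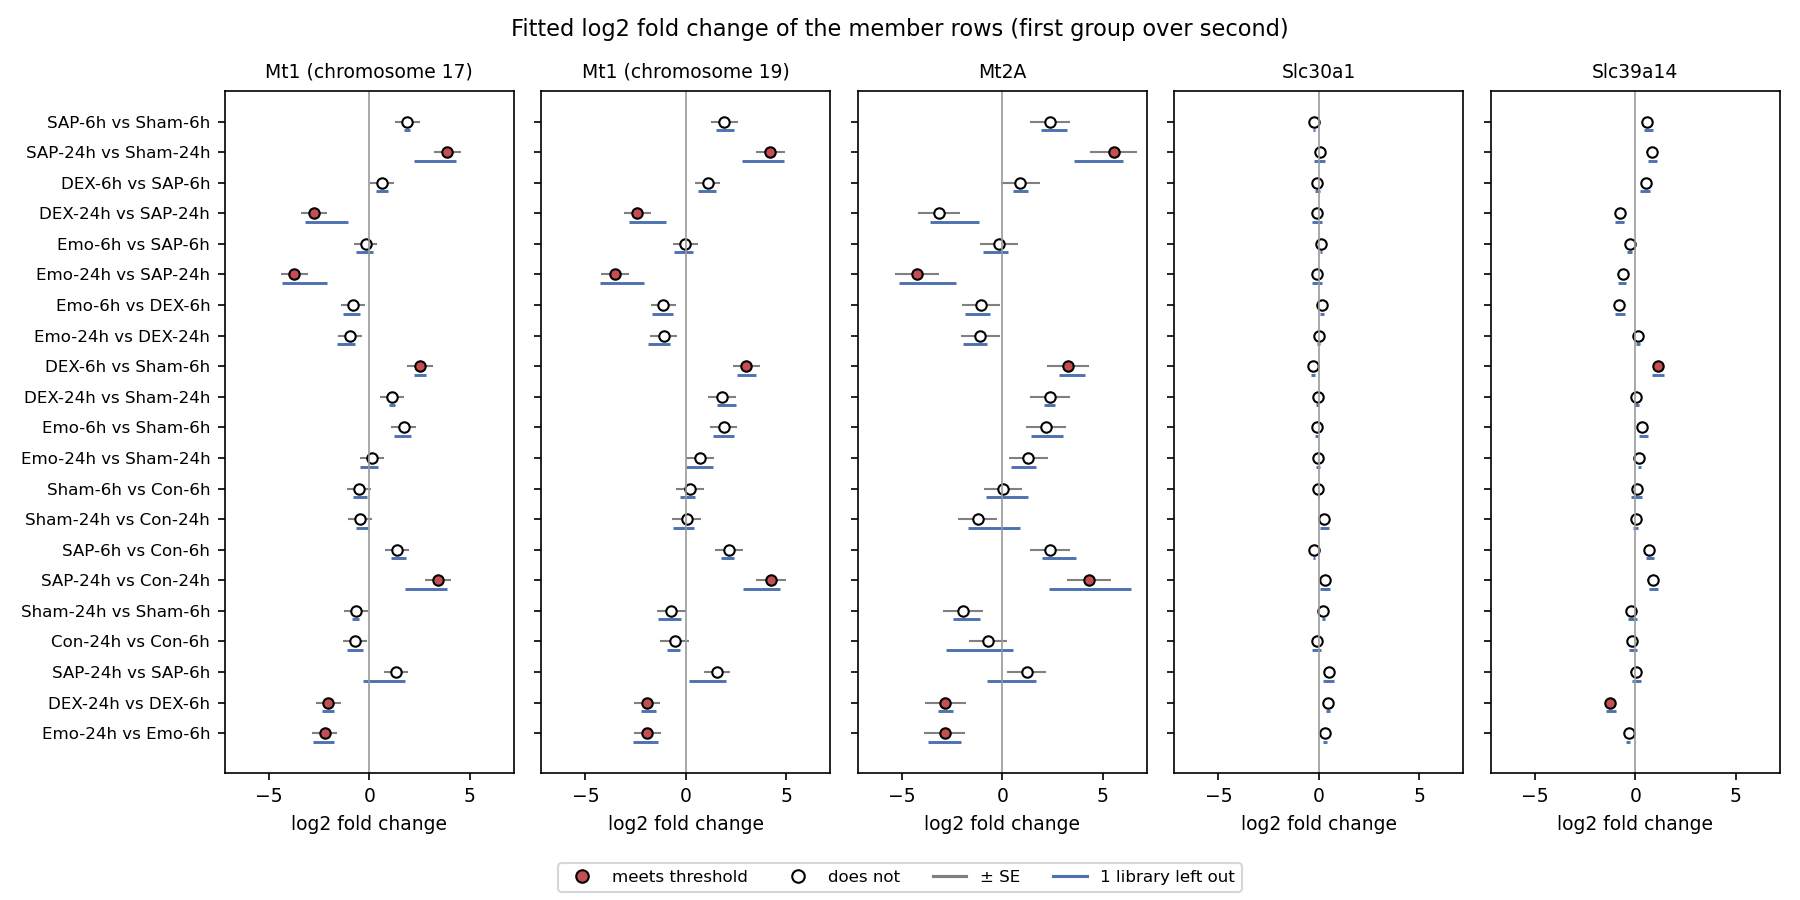
Log2 fold change (first group over second, points) with its SE (grey) for 5 member rows in 21 comparisons, filled where the DEG threshold was met, and the range with 1 library of the pair left out in turn (blue). The metallothionein rows reach 5.55 (Mt2A, SAP-24h versus Sham-24h) and -4.25 (Mt2A, Emo-24h versus SAP-24h), while Slc30a1 stays between -0.29 and 0.49.

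Glucocorticoid targets were measured as a check on the drug. The summed FPKM of 7 known targets (8 rows) was 1265 to 1517 in DEX-6h and 1093 to 1238 in DEX-24h, against 764 to 1178 in SAP-6h and 679 to 759 in SAP-24h. In Emo-6h it was 844 to 967, and in Emo-24h 342 to 631, below every SAP-24h library, with a median log2 fold change of -0.62 and 0 of 8 rows called by edgeR (5 at an unadjusted p under 0.05). In DEX-24h versus SAP-24h 1 of 8 rows, Sgk1, was called up (4 at an unadjusted p under 0.05, median 0.54), and 6 of the 9 interleukin-6 and STAT3-related genes were called down. In Emo-24h versus SAP-24h 8 of those 9 were called down. The summed level of 6 NRF2 antioxidant targets was 70.8 to 128 FPKM over all libraries. Of the 6, 0 were called in these comparisons, while 1, Slc7a11, was called up in SAP-24h versus Con-24h. Whether any of these responses bears on the metallothioneins was not tested.

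The rest of the zinc pathway was tested with the same model, over a list of 27 other genes, of which 26 were matched and 23 tested. This list too was written with results of these data known, so the adjusted p values printed for its genes are a description. It covered the ZnT exporters (SLC30 family), the ZIP importers (SLC39 family), the further metallothioneins Mt3, Mt4 and Mt1m, the zinc-sensing receptor gene Gpr39 and Tmem163. Across the 21 comparisons, 5 of the 23 were called at least once, and 18 never, where 25.1% of all tested rows were called at least once. In SAP-24h versus Sham-24h 2 of 23 were called up and 0 down, beside 5.00% of all rows, with a list median of 0.14 on the log2 scale against -0.03 for all rows tested. In SAP-6h versus Sham-6h, DEX-6h versus SAP-6h, Emo-6h versus SAP-6h and Emo-24h versus SAP-24h 0 were called by edgeR, with 1, 4, 3 and 4 at an unadjusted p under 0.05 and 1, 0, 0 and 1 called by DESeq2, beside 0.220%, 0.515%, 0.0251% and 3.19% of all rows called by edgeR.

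Slc30a3, which encodes the zinc exporter ZnT3 known from synaptic vesicles, was the exporter gene with the largest fall. It was 28.1, 18.6 and 28.1 FPKM in Emo-6h and 2.64, 2.72 and 6.35 in Emo-24h, a log2 fold change of -2.70 ± 0.56 (SE) with an adjusted p of 0.000873 (edgeR quasi-likelihood test), kept with each library left out. At 6 hours it was 27.8 ± 11 in SAP-6h and 29.8 ± 7.17 in DEX-6h against 8.98 ± 5.97 FPKM in Sham-6h (SD, n = 3). The Sham-6h libraries were uneven, at 15.7, 4.31 and 6.91 FPKM in replicates 1, 2 and 3. Against Sham-6h, DEX-6h was called up (adjusted p 0.0364, edgeR) and SAP-6h was not. It was also called up in SAP-24h and DEX-24h versus Sham-24h, at 1.78 ± 0.54 and 1.84 ± 0.54, but each of the 3 calls against Sham was lost in 4 or 5 of 6 cases with 1 library left out.

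Slc30a2, which encodes ZnT2, an exporter into vesicles known from secretory epithelium, was called at a low level in 4 comparisons that involve DEX. It was 1.34, 0.47 and 0.43 FPKM in DEX-24h, 0.25, 0.25 and 0.21 in SAP-24h and 0.15, 0.15 and 0.14 in Emo-24h. Emo-24h versus DEX-24h gave -2.42 ± 0.49 with an adjusted p of 0.00336 (edgeR), kept with each library left out, and DEX-24h versus SAP-24h gave 1.55 ± 0.47 with an adjusted p of 0.0434, lost in 4 of 6 cases. DEX-6h versus Sham-6h and DEX-24h versus Sham-24h were called as well, at 1.86 ± 0.49 and 2.02 ± 0.48, and lost in 2 and 3 of 6 cases.

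Slc39a8, which encodes the zinc and manganese importer ZIP8, the nearest relative of ZIP14, was called up at 24 against 6 hours in DEX, SAP and Emo. It was 19.3, 22.4 and 25.6 FPKM in DEX-6h and 79.1, 35.3 and 76.3 in DEX-24h, a log2 fold change of 1.52 ± 0.37 with an adjusted p of 0.00517 (edgeR), kept with each library left out. SAP-24h versus SAP-6h (1.22 ± 0.37), Emo-24h versus Emo-6h (1.00 ± 0.37), DEX-24h versus Sham-24h (1.31 ± 0.37) and SAP-24h versus Con-24h (1.19 ± 0.37) were called too, each lost in 3 to 6 of 6 cases with 1 library left out. In DEX-24h the ZIP8 gene was thus called up while ZIP14 (Slc39a14) stood at 0.06 ± 0.26 against Sham-24h.

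Mt1m, a pseudogene in RefSeq on chromosome 20, had few reads. It had 0, 2 and 2 reads in Sham-24h and 35, 7 and 4 in SAP-24h, and was called up at 3.53 ± 1.05 (adjusted p 0.0303, edgeR), a call lost without replicate 1 of SAP-24h and without any one of the Sham-24h libraries. It was also called up in SAP-24h versus Con-24h, at 3.29 ± 1.05, though the groups overlapped. How many of these reads belong to Mt1 cannot be read from the counts. Mt3 stayed at 0 to 14 reads in every library and was not called in any of the 21 comparisons, and Mt4 was not matched. Gpr39 was lower in DEX-24h (0.13, 0.19 and 0.13 FPKM, 4 to 6 reads) than in SAP-24h (0.44, 0.57 and 0.58), at -1.86 ± 0.48 with an adjusted p of 0.0193, and than in Emo-24h (0.77, 0.57 and 0.45), at 1.87 ± 0.48 for Emo-24h versus DEX-24h with an adjusted p of 0.0157 (edgeR). These calls were lost in 2 and 4 of 6 cases with 1 library left out.

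**Figure D5:**
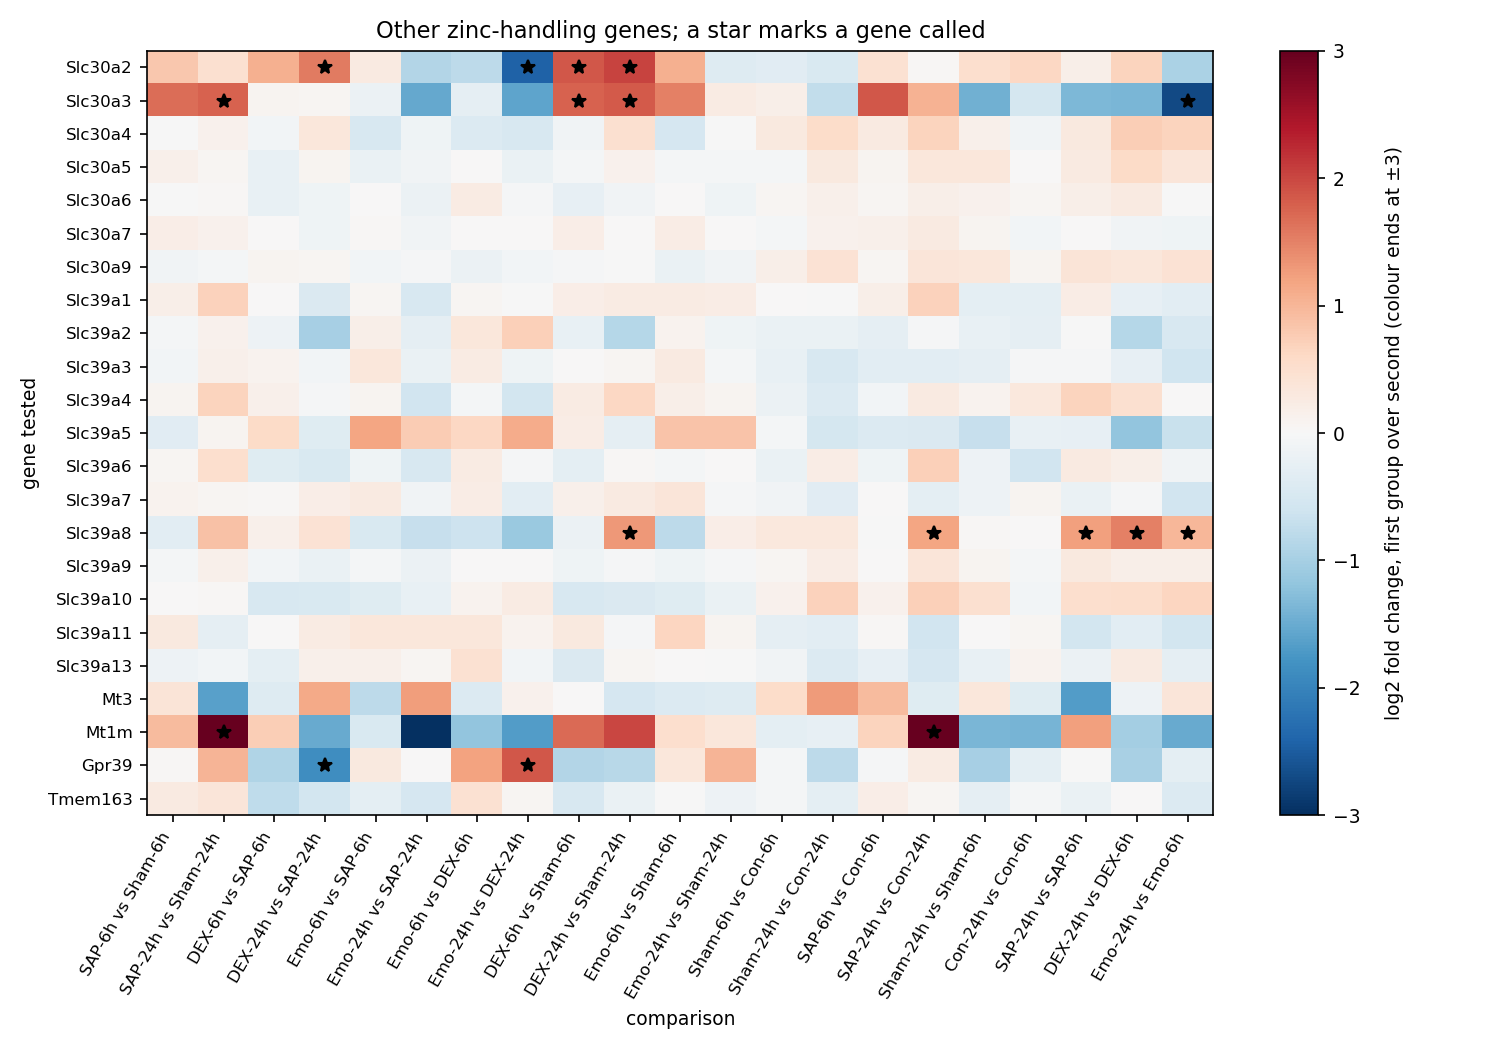
Log2 fold change (colour, first group over second) of the 23 tested zinc-handling genes other than the members (rows) in 21 comparisons (columns), with a star where a gene was called. The 17 stars fall on Slc30a2, Slc30a3, Slc39a8, Mt1m and Gpr39.

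Genes of copper and iron handling were tested alongside, as metallothioneins also bind copper and ZIP14 also carries iron (29 listed, 28 tested). In SAP-24h versus Sham-24h 2 of 28 were called up and 0 down, beside 5.00% of all rows called, with a list median of 0.16. These were Tf, which encodes the iron carrier transferrin, at 275, 245 and 305 FPKM against 98.6, 41.7 and 142 (1.68 ± 0.37, adjusted p 0.00558, edgeR), and Hmox1, which encodes the haem-degrading enzyme, at 81.8, 27.6 and 35.3 against 24.8, 19.6 and 26.8. Hmox1 was thus highest in the same library as the metallothioneins, and its call (1.18 ± 0.31) was lost without replicate 1 of SAP-24h, at 0.50, and without replicate 2 of Sham-24h, while that of Tf held with each library left out. Tf was lower in DEX-24h (-1.48 ± 0.36, adjusted p 0.0149, edgeR) and Emo-24h (-1.51 ± 0.36, adjusted p 0.0157) than in SAP-24h, and each call was lost in 2 of 6 cases. The largest Tf difference was 2.39 ± 0.37 in SAP-24h versus Con-24h (adjusted p 0.000384, edgeR).
Atp7b, which encodes a copper-exporting ATPase, was called up in DEX-6h (2.70, 1.76 and 3.62 FPKM) versus Sham-6h (0.38, 0.89 and 0.27), at 2.44 ± 0.46 with an adjusted p of 0.00217 (edgeR). Sod3, the extracellular superoxide dismutase gene, was higher in Emo-24h (95.3, 76.4 and 74.5 FPKM) than in DEX-24h (23.3, 36.4 and 36.1), at 1.29 ± 0.18 with an adjusted p of 0.000189 (edgeR). Steap4, a metalloreductase gene, was called in SAP-24h versus Con-24h alone, at 1.93 ± 0.47. Tfrc, the transferrin receptor gene, was called up in Emo-24h versus Emo-6h, at 1.44 ± 0.33 with an adjusted p of 0.00225 (edgeR).

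The transcripts whose levels were most like those of each member were sought among 11355 tested genes with a mean of at least 1 FPKM, by Pearson r on log2(FPKM + 1) over the 30 libraries. For both Mt1 rows and for Mt2A, the other metallothionein rows came first (r 0.934 to 0.953). Next came Wbp1l for Mt1 on chromosome 17 (0.920) and Cd14, the lipopolysaccharide co-receptor gene, for Mt1 on chromosome 19 (0.930) and Mt2A (0.918). For Slc30a1 they were Pvrl3, Eps15 and Vamp7 (0.825, 0.8 and 0.790), and for Slc39a14 Sept5, Hk2 and Adgrg1 (0.854, 0.840 and 0.839). These correlations describe shared patterns across libraries and carry no p.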

How the data were processed

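RNA-seq libraries of polyadenylated RNA from 30 rat lungs were sequenced by the authors, clipped, mapped with TopHat2 to the Ensembl rat genome they call rat_ensembl_v6 and filtered to uniquely mapped reads. The authors deposited raw counts per gene (whole numbers, not normalized) and FPKM values rounded to 2 decimals, which rest on the same reads. Rounding limits the precision of FPKM values near 0.01, and discarding reads that map to several places can lower genes that share sequence with others (whether the Mt1 rows do was not tested). Reads were not mapped again here.

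Counts were tested with edgeR 4.0.16 in R 4.3.3 (filterByExpr with a minimum count of 10 and minimum total of 15, TMM scaling, a quasi-likelihood fit of 10 groups over 30 libraries with 20 residual degrees of freedom, Benjamini-Hochberg adjustment over 15934 genes in each of 21 comparisons and 3 contrasts of effects between times). The SE is the size of the log2 fold change divided by the root of F. FPKM served for levels and, with a pseudocount of 1, for correlations (pandas 2.3.3, numpy 2.4.6). On counts simulated for SAP-24h versus Sham-24h with 15767 genes, 88 of 100 genes changed by 1.5 and 97 of 100 changed by 2.5 (log2) were called, along with 4 unchanged genes. The changed genes were drawn at random from well-counted genes only. These shares therefore do not hold for genes with few reads, or for genes that vary between rats as much as the metallothioneins. Alternatives were RLE scaling, DESeq2 1.42.0, no filter, a replicate block, fits of 2 groups, each library left out and, for correlations, Spearman's rho, 0.1 as pseudocount and no minimum level. Leaving out each library for the group means and correlations was added after seeing the data.

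The members and gene lists were chosen with earlier results of these data known, so the adjusted p values of list genes are given as a description. Named genes are the members, each zinc list gene called at least once, up to 3 copper and 3 iron genes with the largest change among called genes whose groups did not overlap, the 3 genes most like each member, and marker genes where a result moves with them. Replicates are separate rats. Promoters come from RefSeq (GRCr8), a build other than that of the counts.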

Additional observations from a re-analysis of the deposited data

Results flagged for a closer look

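Slc39a3, which encodes the zinc importer ZIP3, was the only gene of the zinc, copper and iron lists whose emodin effect differed between times at an adjusted p under 0.05 (edgeR interaction contrast, 51 rows of the lists tested). The effect of Emo versus SAP at 24 hours minus that at 6 hours was -0.56 ± 0.15 on the log2 scale (adjusted p 0.0442), less than 2-fold and so not among the calls. Slc39a3 was 8.48, 9.08 and 7.80 FPKM in Emo-6h and 7.31, 6.07 and 6.38 in SAP-6h, against 6.04, 5.63 and 5.58 in Emo-24h and 5.55, 6.46 and 5.94 in SAP-24h. The Emo and SAP libraries did not overlap at 6 hours (0.34 ± 0.11) and overlapped at 24 hours (-0.21 ± 0.11), and neither effect was called on its own.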

How the results depend on the processing

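All 105 log2 fold changes of the members moved by less than the spread between replicates under each of RLE scaling, DESeq2, no filter, fits of the 2 groups compared and the replicate block. That spread is a wide yardstick for the metallothioneins, with a pooled log2 SD within groups of 1.26 for Mt2A. It does not show whether a row still met the threshold. No sign was seen that replicate numbers pair the rats: all 3 same-numbered pairs correlated above 0.1 in 1 of 21 comparisons, and 9 of 30 libraries correlated best with their own number. With 3 rats a group this cannot exclude a pairing. With the replicate block, SAP-24h versus Sham-24h gave 3.70 for Mt1 on chromosome 17. With 1 library left out in turn, where a lone pair borrows the spread of the other groups, Mt1 on chromosome 17 ran from 2.23 to 4.31 in SAP-24h versus Sham-24h, -3.18 to -1.08 in DEX-24h versus SAP-24h and -4.35 to -2.09 in Emo-24h versus SAP-24h. For Mt1 on chromosome 19 these ranges were 2.80 to 4.88, -2.84 to -0.97 and -4.25 to -2.09, and for Mt2A 3.58 to 6.02, -3.62 to -1.18 and -5.13 to -2.29. The value nearest 0 came each time without replicate 1 of SAP-24h. By Spearman correlation, Wbp1l came first for Mt1 on chromosome 17, Cebpd for Mt1 on chromosome 19, Ipo11 for Slc30a1 and Stat3 for Slc39a14.

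Of the zinc list, DESeq2 called 1 in SAP-6h versus Sham-6h, Emo-24h versus SAP-24h, Emo-6h versus Sham-6h, SAP-6h versus Con-6h and Emo-24h versus Emo-6h, 2 in DEX-24h versus DEX-6h and 4 in Emo-24h versus DEX-24h. Fits of 2 groups called 0 in SAP-24h versus Sham-24h, DEX-24h versus SAP-24h, SAP-24h versus Con-24h and SAP-24h versus SAP-6h, 1 in DEX-6h versus Sham-6h, DEX-24h versus Sham-24h and Emo-24h versus Emo-6h, and 2 in DEX-24h versus DEX-6h. Without a filter 1 was called in DEX-24h versus SAP-24h and Emo-24h versus Emo-6h and 0 in SAP-24h versus SAP-6h. The replicate block gave 1 in DEX-24h versus SAP-24h, DEX-6h versus Sham-6h and Emo-24h versus Emo-6h, and RLE scaling 1 in Emo-24h versus SAP-24h and Emo-24h versus Emo-6h. With 1 library left out the zinc counts ran from 0 to 1 in SAP-24h versus Sham-24h, Emo-24h versus SAP-24h and DEX-6h versus Sham-6h, 0 to 2 in DEX-24h versus SAP-24h, DEX-24h versus Sham-24h and SAP-24h versus Con-24h, 1 to 4 in Emo-24h versus DEX-24h, and 1 to 2 in DEX-24h versus DEX-6h and Emo-24h versus Emo-6h, and were 0 in SAP-24h versus SAP-6h.

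Of the copper and iron lists, DESeq2 called 1 in SAP-6h versus Sham-6h, DEX-6h versus SAP-6h, SAP-6h versus Con-6h and Sham-24h versus Sham-6h, and 2 in SAP-24h versus SAP-6h. Fits of 2 groups called 0 in SAP-24h versus Sham-24h, Emo-24h versus SAP-24h, Emo-6h versus DEX-6h and Sham-24h versus Con-24h, 1 in DEX-6h versus SAP-6h and DEX-24h versus SAP-24h, and 2 in SAP-24h versus Con-24h. The replicate block gave 0 in SAP-24h versus SAP-6h, and no filter 1 in DEX-24h versus DEX-6h. With 1 library left out the copper and iron counts ran from 0 to 1 in SAP-6h versus Sham-6h, DEX-6h versus SAP-6h, Emo-6h versus DEX-6h and Sham-24h versus Con-24h, 1 to 2 in SAP-24h versus Sham-24h, Emo-24h versus DEX-24h, DEX-6h versus Sham-6h and DEX-24h versus Sham-24h, 0 to 3 in DEX-24h versus SAP-24h and Emo-24h versus SAP-24h, 2 to 6 in SAP-24h versus Con-24h, and 0 to 2 in SAP-24h versus SAP-6h and DEX-24h versus DEX-6h. The cause of these changes was not tested. Few reads limit what can be said of Mt3, Mt1m and Gpr39, and of Mtf1, whose counted gene model may also be incomplete, which was not tested.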
